A study of Mus musculus with 6 samples.

Results

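The 10 genes described here encode brakes on mitogen-activated protein kinase (MAPK) signalling. They are the dual-specificity phosphatases Dusp1, Dusp2, Dusp4, Dusp5, Dusp6 and Dusp10, the Sprouty proteins Spry1 and Spry2, and the Sprouty-related proteins Spred1 and Spred2. They were taken by their mouse symbols from a table of read counts for 55401 genes, and all 10 were found. The table came from bulk RNA sequencing of 6 mouse T-cell samples. In the NFL group (n = 3), the T cells were cultured with 50% supernatant from macrophages that had been exposed for 24 hours to 5 µg/mL of NFL, the neurofilament light chain that axons use as a structural protein. In the control group (n = 3), the supernatant came from macrophages that had not been given NFL. In both groups CD11b-selected cells of the spleen were turned into macrophages over 7 days in 50 ng/mL of the growth factor M-CSF, and the T cells were taken from spleen on beads against CD8a and kept in medium with 2% serum. For these samples the series' design text says that the NFL was prepared from sciatic nerve lysate by freezing and thawing, whereas the study's methods describe a purchased NFL protein for treating mice and the nerve lysate as a separate treatment. Which preparation the macrophages received cannot be settled from these sources. The supernatant was the only difference between the groups that the labels state. The study's methods describe female mice of the C57BL/6 and NOD-SCID strains, and a time of culture for T cells grown together with macrophages, but no source used here ties a strain, sex, age or culture time to these 6 samples. Nothing in the labels says that the 3 samples of a group came from separate animals or cultures, so the p-values below measure the spread between these samples, which may be technical.

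MAPK pathways carry signals from the T-cell receptor, growth factor receptors and cytokine receptors through Ras proteins and chains of kinases to ERK, p38 and JNK, which then phosphorylate other kinases and transcription factors. The brakes act at different levels of the chain. Sprouty and Spred proteins act upstream, at Ras and Raf, and Spred proteins do so by bringing the Ras inhibitor neurofibromin to the membrane. The dual-specificity phosphatases act at the end of the chain and remove the activating phosphates from the MAPKs themselves. Several of these genes are switched on by the pathway that they restrain, so their transcripts are commonly read as a record of recent ERK activity.

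Promoter sequences are shown for Dusp6 and Dusp1, the members past the test threshold, and for Dusp5, which held CArG boxes. The sequences are the 250 bases before the annotated start, from RefSeq (GRCm38.p6), and a promoter was given there for 9 of the 10 members, with Dusp4 missing. Both strands were searched for the cAMP response element TGACGTCA and its short form TGACG, which lies within it, for the AP-1 site TGANTCA, the ETS site CCGGAAG, the NF-κB motif, the serum response factor CArG box and TATAAA. Capitals mark matches, each printed 5′ to 3′ on the strand of the gene, so a match on the opposite strand reads as its reverse complement. The Dusp6 promoter (chr10:99262981-99263230, plus strand) held no match. In the Dusp1 promoter (chr17:26508473-26508722, minus strand), capitals mark the short cAMP response element at -191 to -187 and the full element at -143 to -136, counted from the start. In the Dusp5 promoter (chr19:53528895-53529144, plus strand), capitals mark CArG boxes at -82 to -73 and -72 to -63, which lie side by side, and a short cAMP response element on the opposite strand at -55 to -51. The gene models that gave the coordinates and exon lengths used below have another start for Dusp1 (26562128) and Dusp5 (53529109) than these RefSeq starts. They also differ from RefSeq in the start of Spred1 (117121374), Spred2 (19924375) and Dusp10 (184013302).
Dusp6: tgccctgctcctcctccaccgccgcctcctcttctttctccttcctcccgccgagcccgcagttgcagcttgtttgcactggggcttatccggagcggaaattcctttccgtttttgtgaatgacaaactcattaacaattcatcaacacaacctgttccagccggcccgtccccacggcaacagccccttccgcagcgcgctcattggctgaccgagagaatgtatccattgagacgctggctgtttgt
Dusp1: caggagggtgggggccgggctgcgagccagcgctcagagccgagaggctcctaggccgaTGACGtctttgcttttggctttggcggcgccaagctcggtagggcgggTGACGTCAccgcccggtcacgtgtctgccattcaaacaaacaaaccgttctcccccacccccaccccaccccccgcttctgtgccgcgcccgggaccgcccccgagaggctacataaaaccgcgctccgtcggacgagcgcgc
Dusp5: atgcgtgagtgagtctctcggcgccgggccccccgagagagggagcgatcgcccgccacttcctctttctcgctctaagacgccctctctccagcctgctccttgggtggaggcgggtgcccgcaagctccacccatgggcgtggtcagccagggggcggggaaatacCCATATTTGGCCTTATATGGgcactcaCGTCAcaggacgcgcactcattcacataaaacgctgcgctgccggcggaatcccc

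Over 32851 promoters of the same length, the full cAMP response element was present in 1.55%, the short form in 17.8% and the CArG box in 1.47%. Spred2 held a short cAMP response element on the opposite strand at -51 to -47, which lies past the start that its gene model gives. The other 5 members with a promoter sequence held none of the motifs. The AP-1 site (6.75% of all promoters), the ETS site (6.91%), the NF-κB motif (7.25%) and TATAAA (12.4%) had no match in any of the 9. A match describes letters only, and no binding was measured.

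The libraries held 15843045 to 24639756 counts. The control libraries had 24639756, 15843045 and 24299918 counts in the order of their replicate numbers, and the NFL libraries had 16190568 to 17796228. Values below are CPM, the counts of a gene relative to the library total, with totals scaled by the TMM method, whose factors ran from 0.994 to 1.007, and 3 counts, taken as the floor, corresponded to 0.122 to 0.189 CPM. Thy1, a T-cell surface protein, was read at 1575 to 1709 CPM. Cd3e, a chain of the T-cell receptor complex, fell from 61.0 ± 4.24 to 50.2 ± 0.960 CPM (log2 fold change -0.28, adjusted p = 0.000572, edgeR). Other chains of that complex were read at 2.32 to 4.82 CPM (Cd3d), 6.05 to 8.86 CPM (Cd3g) and 37.8 to 47.1 CPM (Cd247), and none of these passed the threshold. Cd8a was read at 3.20 to 4.46 CPM, Cd8b1 at 0.870 to 1.57 CPM and Cd4 at 23.3 to 27.6 CPM. Per kilobase of exon, the median was 1.08 CPM for Cd8a and 6.39 CPM for Cd4, so the CD8 markers stood below Cd4 in T cells that were selected on CD8a. The summed macrophage markers came to 24.5 to 27.5 CPM in the controls and 19.2 to 23.4 CPM in the NFL libraries, almost all of it from Cd68, while 8 of the 10 markers had 3 counts or fewer in every library. Summed natural killer markers came to 458.8 to 482.5 CPM in the controls and 440.8 to 460.3 CPM in the NFL libraries. Most of this came from Eomes, at 419 to 450 CPM, while 3 of the 5 markers had 3 counts or fewer in every library. Klrb1c, another marker of that list, fell from 31.7 ± 1.75 to 22.4 ± 0.322 CPM without overlap (log2 fold change -0.51, adjusted p = 2.43e-06, edgeR) and is named after its values were seen. Summed B-cell markers came to 2.64 to 3.66 CPM and summed erythroid markers to 0.988 to 1.99 CPM over all libraries. Mitochondrial transcripts took 1.65% to 1.77% of control counts and 1.54% to 1.60% of NFL counts. Cd3e, Klrb1c, the macrophage sum and the mitochondrial share thus moved with the groups, and their part in the results below was not tested.

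Of the 10 genes, Dusp6 rose and Dusp1 fell in the NFL group, 7 did not pass the test, and Spry1 had no counts in any library. Both changes were small, an increase of 10.9% for Dusp6, while Dusp1 fell by 19.1%. The test was edgeR's quasi-likelihood test over the 14082 genes with enough counts, with a threshold of 0.05 on the Benjamini-Hochberg adjusted p. Over all genes, 986 passed, which was 7.00% of those tested, with 489 higher (3.47%) and 497 lower (3.53%), against 2 of the 9 members tested. An unadjusted p under 0.05 was reached by 3 of the 9 members and by 19.3% of all genes. That count of 2 was small enough to depend on the settings: it was 0 to 1 when any library was left out and 0 with DESeq2. The log2 fold changes of the 9 members had a median of -0.03 and a median size of 0.0499, against -0.00099 and 0.0898 over all genes tested. In bulk samples, fewer cells that carry a transcript and less of it per cell cannot be told apart.

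**Figure D1:**
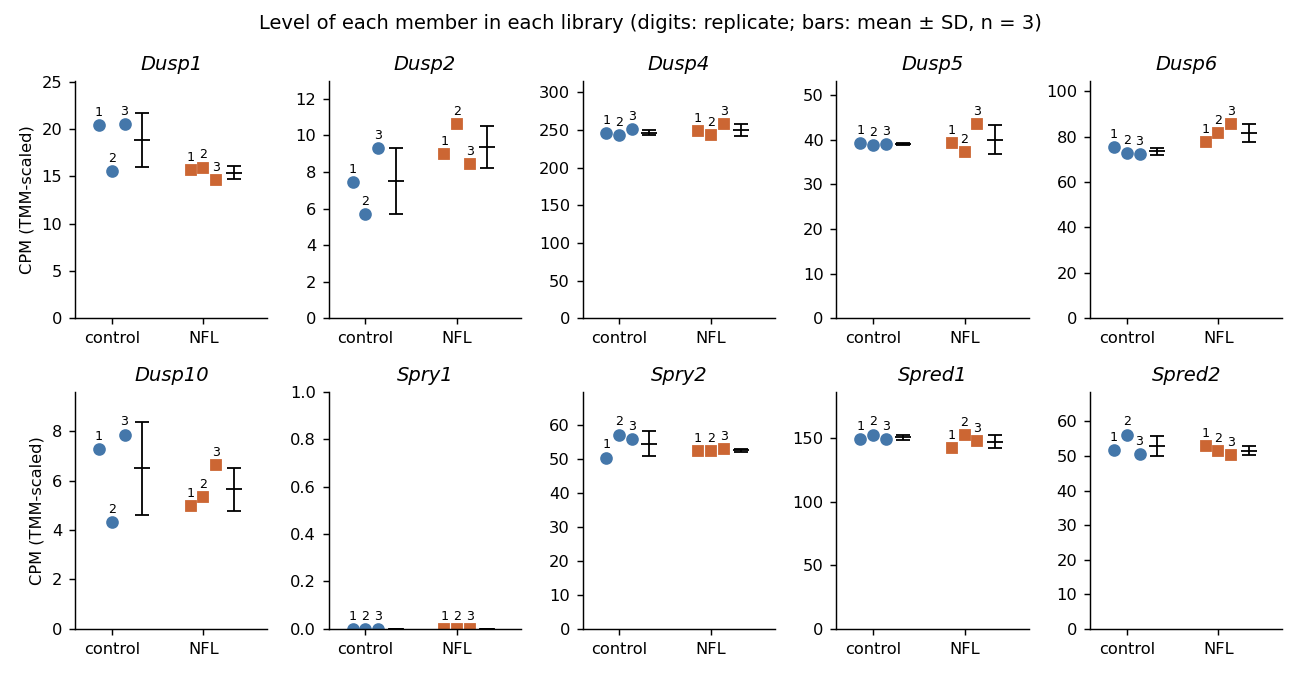
Level of each of the 10 genes in each library, in TMM-scaled CPM on axes that start at 0, with circles for control and squares for NFL libraries, digits for replicate numbers and bars for the mean ± SD (n = 3). The Dusp6 squares, at 77.6 to 85.7 CPM, all lie above the circles, at 72.5 to 75.3 CPM. Control replicate 2 is the lowest circle for Dusp1, Dusp2 and Dusp10, and narrowly for Dusp4 and Dusp5.

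Dusp6 (ENSMUSG00000019960.8, chr10:99263231-99267489, plus strand) encodes a cytoplasmic phosphatase that acts on ERK and that ERK signalling itself induces. Its level was 75.3, 72.9 and 72.5 CPM in control replicates 1 to 3 and 77.6, 81.6 and 85.7 CPM in NFL replicates 1 to 3. Every NFL library lay above every control library, and Dusp6 was the only member whose groups did not overlap, as was the case for 22.7% of all genes tested. The mean rose from 73.6 ± 1.47 to 81.6 ± 4.06 CPM (SD, n = 3 each). The log2 fold change was 0.15 ± 0.048 (SE) with a 95% interval of 0.05 to 0.25 and an adjusted p of 0.0436 (edgeR). An exact permutation test of 3 against 3 gave p = 0.1, the smallest value that this design allows. With a library left out, the log2 fold change was 0.11 to 0.19, and Dusp6 passed the threshold only without NFL replicate 1 (adjusted p = 0.0226, edgeR, against up to 0.305). The call was also lost with scaling by library size alone and with DESeq2.

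Dusp5 (ENSMUSG00000034765.6, chr19:53529109-53542431, plus strand) encodes the nuclear phosphatase that is selective for ERK. It was read at 39.2, 38.9 and 39.1 CPM in the controls and at 39.3, 37.2 and 43.6 CPM in the NFL libraries. The controls had a coefficient of variation of 0.395%, and the NFL libraries spread on both sides of them, with replicate 3 the highest. On the log2 scale the groups differed by 0.03 ± 0.065 (95% interval -0.10 to 0.16, adjusted p = 0.842, edgeR). The antisense transcript AC137853.2 shares 547 exon bases with Dusp5 and was read at no more than 2.09 CPM. The counting is not stated to use strand, so reads from that stretch cannot be assigned to either gene.

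Dusp1, Dusp2 and Dusp4 encode inducible phosphatases of the nucleus, and in these cells they gave 3 different patterns. Dusp1 (ENSMUSG00000024190.7, chr17:26505590-26562128, minus strand) is an immediate early gene whose product acts on p38 and JNK as well as ERK. It was read at 20.4, 15.6 and 20.6 CPM in the controls and at 15.7, 15.9 and 14.6 CPM in the NFL libraries. Control replicates 1 and 3 stood above all other libraries, while control replicate 2 lay among the NFL libraries, so the groups overlapped. The mean fell from 18.8 ± 2.84 to 15.4 ± 0.694 CPM (SD, n = 3 each). The log2 fold change was -0.31 ± 0.099 (95% interval -0.50 to -0.11, adjusted p = 0.0467, edgeR), and the exact permutation p was 0.3. Without control replicate 2 the log2 fold change was -0.41 (adjusted p = 0.00167, edgeR), while leaving out any other library took the call away (adjusted p up to 0.245). The call was also lost with DESeq2, with limma-voom and after a correction for GC content and gene length. Dusp1 shares 11 exon bases with Ergic1 on the opposite strand. Ergic1 was read at 215.9 to 220.1 CPM in the controls and 199.3 to 210.2 CPM in the NFL libraries. Its log2 fold change was -0.09 (adjusted p = 0.0778, edgeR). The counting is not stated to use strand, so reads from the shared bases cannot be assigned to either gene, and their part was not tested.

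Dusp2 (ENSMUSG00000027368.6, chr2:127336159-127338376, plus strand) encodes a phosphatase known from activated lymphocytes and myeloid cells. It was read at 7.48, 5.71 and 9.33 CPM in the controls and at 9.01, 10.6 and 8.44 CPM in the NFL libraries. NFL replicate 2 was the highest and control replicate 2 the lowest, but control replicate 3 lay above NFL replicates 1 and 3. The log2 fold change was 0.29 ± 0.14 with a 95% interval of 0.01 to 0.58, nearly the size of the Dusp1 difference, and it missed the threshold (adjusted p = 0.232, edgeR). Leaving out control replicate 3 brought it to 0.48 and past the threshold (adjusted p = 0.0476, edgeR), and leaving out control replicate 2 brought it to 0.16.

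Dusp4 (ENSMUSG00000031530.6, chr8:34807297-34819894, plus strand), which is ERK-induced and is raised in T cells with lasting receptor stimulation, was the most abundant of the phosphatases. It was read at 246, 243 and 251 CPM in the controls and at 249, 243 and 258 CPM in the NFL libraries. The libraries of both groups were interleaved. The log2 fold change was 0.02 ± 0.032, and its 95% interval of -0.05 to 0.08 corresponds to fold changes of 0.969 to 1.06 (adjusted p = 0.826, edgeR).

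Dusp10 (ENSMUSG00000039384.8, chr1:184013302-184075636, plus strand) encodes a phosphatase that prefers JNK and p38 over ERK, and it had the lowest level of the members with counts. Its values were 7.27, 4.33 and 7.86 CPM in the controls and 4.97, 5.35 and 6.63 CPM in the NFL libraries. Control replicate 2 was the lowest of all libraries and control replicates 1 and 3 the highest. On the log2 scale the NFL group differed by -0.23 ± 0.167 (95% interval -0.56 to 0.11, adjusted p = 0.509, edgeR). Without control replicate 2 it was -0.42 (adjusted p = 0.0913, edgeR).

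Control replicate 2 was the lowest control for Dusp1, Dusp2 and Dusp10, and by a narrower margin for Dusp4 and Dusp5. It was the highest control for Spry2, Spred1 and Spred2. It had 69 counts of Dusp10, and the exact Poisson interval of 3.36 to 5.47 CPM lay below those of control replicates 1 and 3, whose lower bounds were 6.24 and 6.78 CPM. For Dusp1 its 248 counts gave 13.7 to 17.6 CPM, against lower bounds of 18.6 and 18.8 CPM. The intervals cover counting error only. Over the 3 controls the coefficient of variation was 15.1% for Dusp1, 24.1% for Dusp2 and 29.2% for Dusp10, against 1.59% for Dusp4 and 2.00% for Dusp6. Control replicate 2 was also the shallowest library, and a link with these values was not tested.

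The ratio of Dusp6 to Dusp1 within a library does not depend on how libraries are scaled. It was 3.69, 4.69 and 3.53 in the controls and 4.96, 5.12 and 5.86 in the NFL libraries. Every NFL library thus had a higher ratio than every control library, including control replicate 2. The difference was 0.43 on the log2 scale and stayed between 0.35 and 0.55 when any library was left out, with an exact permutation p of 0.1, the smallest possible here. This ratio was chosen after the values of both genes were seen.

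**Figure D2:**
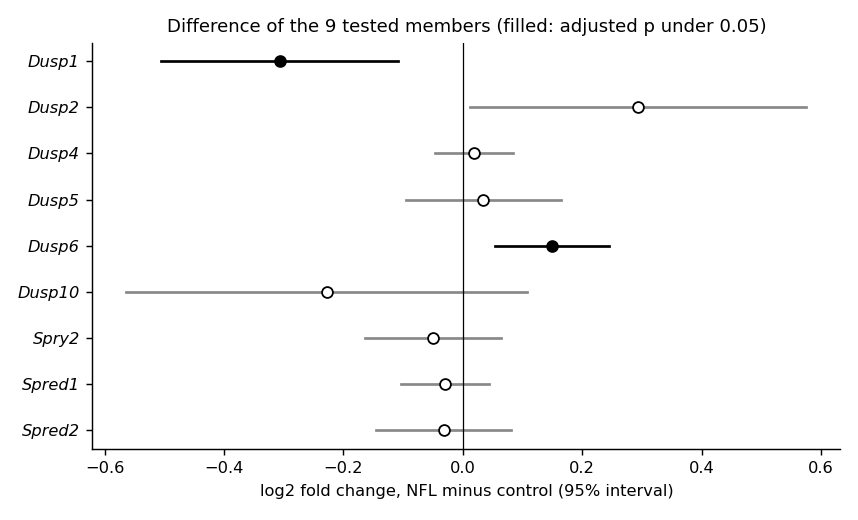
Log2 fold change (NFL minus control) of the 9 genes tested, with bars for the 95% interval from edgeR and filled points for an adjusted p under 0.05. Dusp6 at 0.15 and Dusp1 at -0.31 are filled, and the intervals of Dusp1, Dusp2 and Dusp10, the members with the lowest levels, are the widest.

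**Figure D3:**
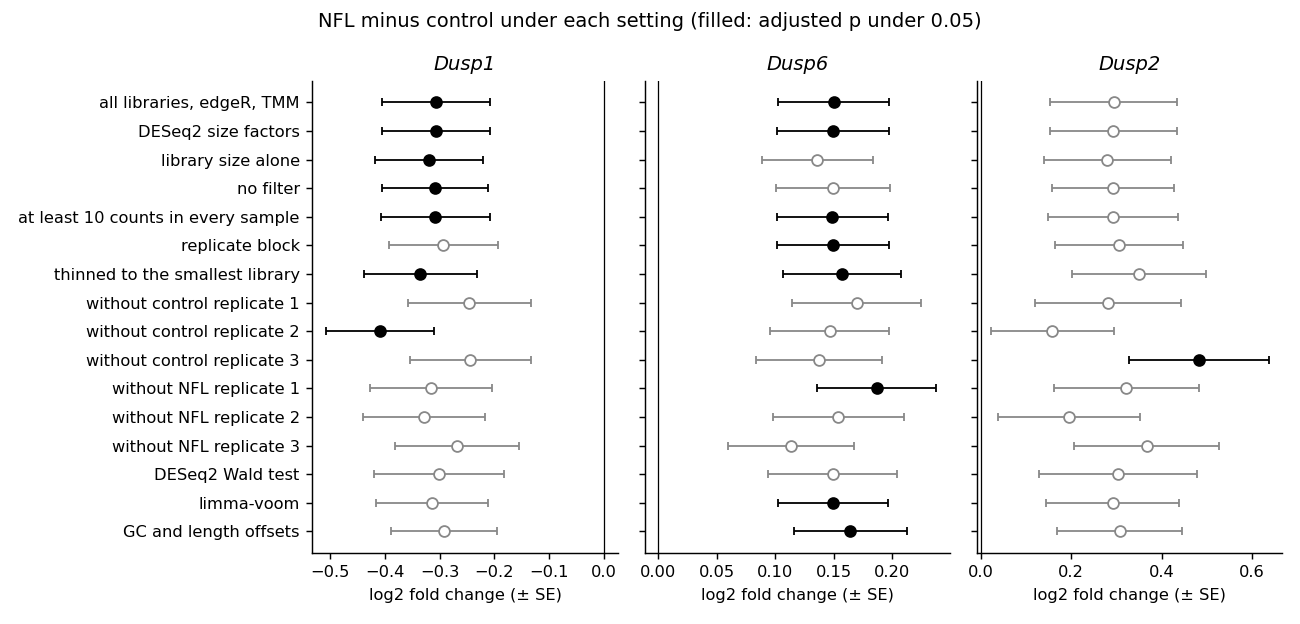
Log2 fold change (NFL minus control) of Dusp1, Dusp6 and Dusp2 with all libraries and under 15 processing alternatives, including each library left out, with bars for the SE and filled points for an adjusted p under 0.05. Dusp1 stays between -0.41 and -0.24 and Dusp6 between 0.11 and 0.19, with Dusp1 filled under 6, Dusp6 under 7 and Dusp2 under 1 of the 15 alternatives.

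The Sprouty genes differed in whether they were read at all. Spry1 (ENSMUSG00000037211.12, chr3:37639947-37644598, plus strand) had 0 counts in all 6 libraries, below the floor of 3 counts, which corresponded to 0.122 to 0.189 CPM. Spry2 (ENSMUSG00000022114.5, chr14:105891947-105896819, minus strand), an inhibitor between receptors and Raf, was read at 50.4, 57.1 and 55.8 CPM in the controls and at 52.2, 52.3 and 52.8 CPM in the NFL libraries. The NFL libraries lay close together between the lowest control and the other two. For Spry2 the log2 fold change was -0.05 ± 0.057 (95% interval -0.16 to 0.06, adjusted p = 0.711, edgeR).

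The Spred genes showed no change past the threshold either. Spred1 (ENSMUSG00000027351.14, chr2:117121374-117182279, plus strand) was read at 149.5, 152.7 and 148.8 CPM in the controls and at 141.8, 152.1 and 147.3 CPM in the NFL libraries. Only NFL replicates 1 and 3 lay below all controls. Its log2 fold change was -0.03 ± 0.037 (95% interval -0.10 to 0.04, adjusted p = 0.731, edgeR). Spred2 (ENSMUSG00000045671.17, chr11:19924375-20024026, plus strand) was read at 51.9, 56.2 and 50.6 CPM in the controls and at 52.9, 51.4 and 50.4 CPM in the NFL libraries. Control replicate 2 was the highest and the other libraries were interleaved. For Spred2 it was -0.03 ± 0.057 (95% interval -0.15 to 0.08, adjusted p = 0.831, edgeR). For Dusp4, Dusp5, Spry2, Spred1 and Spred2, 5 members in all, the whole 95% interval of the log2 fold change lay between -0.2 and 0.2.

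Levels were compared between genes per kilobase of exon. Dusp4 had the highest median over the 6 libraries at 90.2 CPM per kilobase, followed by Spry2 at 25.2, Dusp6 at 24.4, Spred1 at 22.0, Dusp5 at 15.8, Spred2 at 11.2, Dusp1 at 4.77, Dusp2 at 4.36 and Dusp10 at 1.97. Spry2 and Dusp6 did not differ beyond their spread and stood in this order in 4 of 6 libraries, and the same held for Dusp1 and Dusp2, in this order in 5 of 6. All other neighbours kept their order in 6 of 6 libraries, and their ranges did not overlap. The phosphatase genes Dusp4, Dusp5 and Dusp6 and the upstream brakes Spry2, Spred1 and Spred2 thus all stood above Dusp1, Dusp2 and Dusp10 in every library.

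The other genes of the pathway were counted from 6 lists of 107 genes in all, of which 83 were tested and 14 passed the threshold (16.9%, against 7.00% of all genes), 8 higher and 6 lower. The lists were chosen with earlier results of these data known. The shares were not matched for expression level, and their difference was not tested. None of the 13 other phosphatases of the DUSP family that were tested passed, and their median log2 fold change was -0.04. The smallest p among them was that of Dusp14 (log2 fold change -0.23, adjusted p = 0.157, edgeR). Of the other Sprouty, Spred and Sef genes, 2 were tested and neither passed, with Spred3 at 0.17 (adjusted p = 0.596, edgeR).

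Upstream of the kinases, 3 of 20 Ras activators, Ras proteins and Ras inhibitors fell and none rose (median log2 fold change -0.03). Rasgrp1, the exchange factor that loads Ras with GTP after T-cell receptor stimulation, was read at 123.2, 129.1 and 129.8 CPM in the controls and 115.5, 113.5 and 110.9 CPM in the NFL libraries. Every NFL library lay below every control, with a log2 fold change of -0.17 (adjusted p = 0.00365, edgeR). Ksr1, a scaffold for Raf, MEK and ERK (-0.16, adjusted p = 0.0406, edgeR), and the Ras-related Rras2 (-0.11, adjusted p = 0.0422, edgeR) also fell, but each lost its call without 4 or more of the libraries taken singly. Without NFL replicate 3, Rasgrp1 also missed the threshold (adjusted p = 0.0528, edgeR).

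Among the 25 MAP3K, MAP2K and MAPK genes tested, 1 rose and 1 fell (median log2 fold change -0.0037). Map3k7, the kinase TAK1 of the NF-κB, p38 and JNK pathways, rose from 130.3 ± 6.05 to 145.7 ± 5.82 CPM (log2 fold change 0.16, adjusted p = 0.00631, edgeR). Mapk3, which encodes ERK1, fell from 42.6 ± 0.647 to 36.2 ± 2.08 CPM (log2 fold change -0.23, adjusted p = 0.0148, edgeR). In both genes the groups did not overlap. The call of Map3k7 was lost without NFL replicate 2 (adjusted p = 0.0935, edgeR), and that of Mapk3 without control replicate 1, NFL replicate 2 or NFL replicate 3 (adjusted p up to 0.109).

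Downstream, 4 of 10 kinases activated by MAPKs passed the threshold, 3 higher and 1 lower, with a median log2 fold change of 0.03. Mapkapk2, the p38 substrate that stabilises cytokine transcripts, was read at 275, 275 and 272 CPM in the controls and at 301, 302 and 294 CPM in the NFL libraries. The groups stood well apart, and the log2 fold change of 0.13 (adjusted p = 0.00505, edgeR) passed whichever library was left out (adjusted p up to 0.0360). Its relative Mapkapk3 (0.15, adjusted p = 0.0246, edgeR) and the ribosomal S6 kinase gene Rps6ka6 (0.14, adjusted p = 0.0108, edgeR) also rose, and Rps6ka3, which encodes RSK2, fell (-0.09, adjusted p = 0.0455, edgeR). Mapkapk3 passed in 3 of 6 fits with a library left out, Rps6ka6 in 4 and Rps6ka3 in 1.

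Of 20 transcripts known to respond to ERK, 13 were tested, and the others had at most 9 counts in any library. Among the 13, 4 rose and 1 fell, with a median log2 fold change of 0.09. Epha2, an ephrin receptor induced by the Ras pathway, was read at 36.5, 39.2 and 38.1 CPM in the controls and at 44.7, 51.3 and 44.6 CPM in the NFL libraries. The groups did not overlap, and the log2 fold change of 0.31 (adjusted p = 0.000741, edgeR) passed whichever library was left out. The immediate early gene Ier2 (0.32, adjusted p = 0.00646, edgeR) and the ETS factor Etv4 (0.12, adjusted p = 0.0103, edgeR) rose as well, each past the threshold in 4 of 6 fits with a library left out. Fosl2, an AP-1 subunit, fell (-0.22, adjusted p = 0.0172, edgeR) and passed in 3 of 6 such fits. The remaining riser was the transcription factor gene Maff (0.28, adjusted p = 0.0335, edgeR), which passed in 1 of 6 such fits and is named here after its values were seen.

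**Figure D4:**
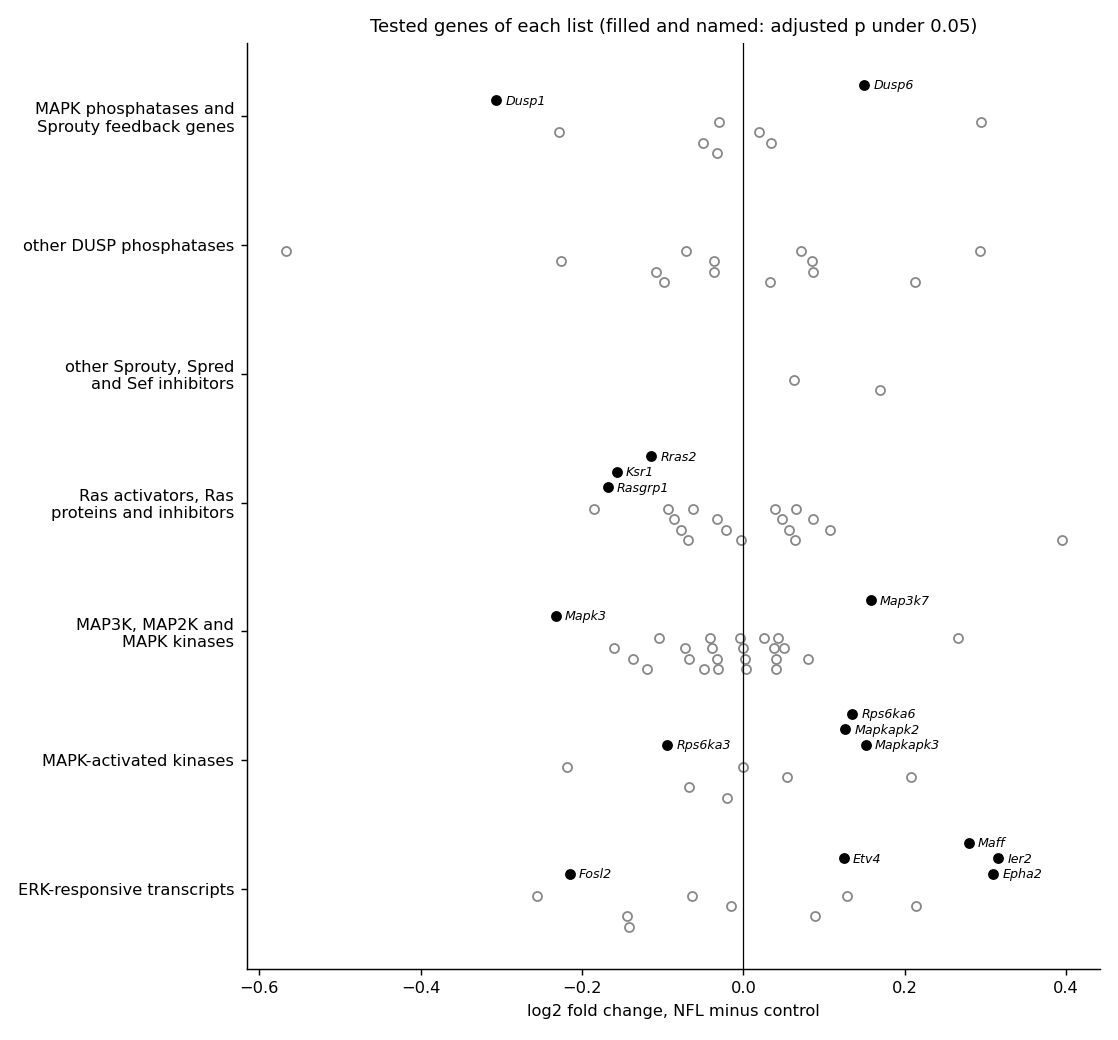
Log2 fold change (NFL minus control) of each tested gene in the 10 members and in the 6 pathway lists, 1 point per gene, with filled and named points for an adjusted p under 0.05 (edgeR). No point is filled among the other phosphatases, while 4 of 10 MAPK-activated kinases and 5 of 13 ERK-responsive transcripts are filled, on both sides of 0.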

How the data were processed

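RNA from 6 T-cell samples was sequenced as poly(A) libraries on an Illumina instrument, and the authors deposited raw read counts per gene, which are not normalized. Which aligner, counter, annotation and strand setting were used is not given in the sources used here. The submitters' processing notes name GRCm39, R 4.2.1 and limma 3.54.2 without a role. Of the 55401 gene identifiers, 54349 are identical, version included, to GENCODE M21, which gave symbols, exon lengths and the GRCm38 coordinates printed above, and the build behind the counts may differ from it. Groups followed the sample titles. Genes were kept by filterByExpr (minimum count 10, minimum total 15), scaled by TMM and tested with edgeR 4.0.16 (quasi-likelihood test, no covariate) in R 4.3.3, with Benjamini-Hochberg adjustment over 14082 genes. SEs were taken from the log2 fold change and F. Exact permutation tests were two-sided, on log2 CPM. DESeq2 1.42.0 and limma-voom (limma 3.58.1) served as alternatives. The scripts were tested on simulated data. No gene list was tested as a set. Libraries of the same group differed by more than sampling noise (chi-square per degree of freedom 1.89 to 3.41) and libraries of different groups by 4.75 to 5.36. Each was counted as a sample, but these values do not show that the samples came from separate animals or cultures. The members and lists were chosen with earlier results of these data known. All members were named, and of each pathway list up to 4 genes past the threshold with the smallest p, or else the gene with the smallest p.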

Additional observations from a re-analysis of the deposited data

How the results depend on the processing

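Of the 2 members past the threshold, 1 passed with scaling by library size alone, with no filter, with the replicate number as a block, with limma-voom and with GC and length offsets (an alternative chosen after seeing the data), 0 passed with DESeq2 and at an adjusted p under 0.01, and 0 to 1 passed with a library left out. Dusp1 (log2 fold change -0.29 with the replicate block, -0.30 with DESeq2, -0.31 with limma-voom, -0.29 with GC and length offsets) lost its call in these fits (adjusted p 0.0564, 0.105, 0.0529 and 0.0543), and lay between -0.41 and -0.24 with a library left out. Dusp6 lost its call with library size alone (0.14, adjusted p = 0.0758, edgeR), with no filter (0.15, adjusted p = 0.0651, edgeR) and with DESeq2 (0.15, adjusted p = 0.0766), and lay between 0.11 and 0.19 with a library left out. Dusp2 ranged from 0.16 to 0.48 with a library left out. Values near 0 changed sign: Dusp4 (-0.0052) and Dusp5 (-0.032) without NFL replicate 3, in ranges of -0.0052 to 0.042 and -0.032 to 0.088, and Spred2 without control replicate 2 (0.011, range -0.065 to 0.011) and with GC and length offsets (0.0039). Over all genes 500 passed at an adjusted p under 0.01 and 508 to 966 with a library left out (508 without NFL replicate 3, 616 without NFL replicate 2). The split of 489 higher and 497 lower became 372 and 600 with library size alone and 565 and 359 with GC and length offsets. Of the 3 Ras genes, 1 passed with DESeq2, 1 at 0.01 and 0 to 2 with a library left out. With GC and length offsets, 3 genes of the Ras list passed, 1 higher and 2 lower, so the direction was then mixed. Of the 2 MAPK kinases, 1 passed at 0.01 and 0 to 2 with a library left out, and of the 4 MAPK-activated kinases 1 and 1 to 4. Of the 5 ERK-responsive genes, 3 passed with GC and length offsets, where Ier2 had no value, 2 at 0.01 and 2 to 5 with a library left out. The causes were not tested. Whether replicate numbers pair the samples is not settled. The same-number correlations were near 0 (0.0115, 0.0148 and 0.00742) but each the highest of its sample, a hint only, and the block gave 1049 genes. Dusp2 and Dusp10 had the fewest counts of the members tested, at 69 to 228 in a library.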

Other observations

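The following values were chosen after the data were seen, and no explanation was tested. Outside the 10 members, Dusp9, which encodes another cytoplasmic ERK phosphatase, had a median of 28.2 CPM per kilobase of exon, close to Spry2 and Dusp6. It was read at 79.2, 73.9 and 70.9 CPM in the controls and at 82.4, 74.5 and 81.3 CPM in the NFL libraries, and its log2 fold change of 0.09 did not pass the threshold (adjusted p = 0.357, edgeR). Etv4 and Rps6ka6 had medians of 73.2 and 33.7 CPM per kilobase.

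The immediate early genes Fos and Egr1 were low. Fos was read at 2.24, 0.565 and 1.72 CPM in the controls and at 1.93, 1.45 and 2.10 CPM in the NFL libraries, with control replicate 2 the lowest, as for Dusp2 and Dusp10. Egr1 was highest in control replicate 2 and was read at 2.54 to 3.29 CPM in the other 5 libraries.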
